A study of Mus musculus with 10 samples.

Results

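A set of 42 genes that mark cancer-associated fibroblasts and pericytes was followed in mouse pancreatic tumors grown with or without sugar water. The genes were chosen by symbol as markers of fibroblasts in general, of their myofibroblastic and inflammatory states, and of pericytes, with collagens and chemokines left aside. The rule uses no measured value, although the list was drawn up with earlier results of these data known. All 42 were found among the 55359 genes of the table, and all 42 were among the 24560 genes tested. KPC K8484 cells, a single luciferase-expressing murine pancreatic cancer line, had been injected into the pancreas of immunocompetent C57BL/6 mice (C57BL/6J in the study's methods) at 10 weeks of age. The 5 control tumors (CTRL) came from normoglycemic mice on regular water, and the other 5 (D30) came from mice given 30% dextrose water, for 14 days by the study's description. The sample titles call the tumors PDX, while the source field names the KPC line. CTRL columns of the table are N1, N2, N4, N5 and N6, and D30 columns are T1, T2, T4, T5 and T7.

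Fibroblasts build the dense stroma of pancreatic cancer. Those next to tumor cells tend to be contractile, carry smooth muscle actin and respond to TGF-beta, whereas those farther away secrete IL-6, LIF and other cytokines under the influence of IL-1. Resting fibroblasts of normal tissue carry another set of matrix genes, and pericytes wrap the small vessels and depend on PDGF signalling.

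A few libraries stood apart before any comparison. Recovered reads numbered 29192261 to 42122304 per tumor, and 20482 genes had a read in T5 against 23446 to 25912 in the rest. Y-linked genes had 841 reads in T4 and 0 elsewhere, so no CTRL tumor held such reads. The study's methods state that male and female mice were used in equal numbers, but no column was tied to a host of known sex. The part of host sex in the values below was not tested. GC-rich genes lay 1.04 (log2) lower than GC-poor genes in T4 and 0.58 lower in N1, relative to the mean of all tumors, whereas in the other 8 tumors they lay 0.05 to 0.40 higher. The results below were therefore also computed without T4 and T5, without N1 and T4, and with GC-corrected values. These genes are expressed by host cells as well as, for some, by tumor cells, and in whole tumors fewer cells of a type and less RNA per cell cannot be told apart.

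Of the 42 genes, Tpm2 rose and Lrrc15 fell in D30 tumors. That is 4.76% of the genes, beside 2.76% of all tested genes called in either direction (1.4% higher and 1.36% lower). The groups did not overlap for the same 2 genes (4.76%), beside 6.19% of all tested genes. By limma, the number of changed genes was thus near that of the table as a whole. The remaining 40 genes had log2 fold changes from -2.37 to 1.28 that did not pass the test. At an unadjusted p under 0.05, 11 of the 42 were lower (26.2%, beside 9.54% of all tested genes) and 2 were higher (4.76%, beside 7.79%). The 11 were Pdgfra, Pdgfrb, Fap, Thy1, Lum, Lrrc15, Thbs2, Has2, Dpt, Ogn and Cygb, and the 2 were Tpm2 and Gsn. The log2 fold change lay below 0 for 28 of the 42 (66.7%, beside 54.7%), with a median of -0.42 beside -0.06 over all tested genes.

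By role, the median log2 fold change was -0.76 for the general fibroblast genes, of which 11 of 12 lay below 0. The resting and inflammatory fibroblast genes had -0.54 (5 of 7 below 0), the pericyte genes -0.44 (3 of 5), the myofibroblastic genes -0.31 (7 of 10) and the cytokine and hyaluronan genes 0.01 (2 of 5). The 3 mesothelial and acute phase genes were all above 0, with a median of 0.40. These medians describe the lists and were not tested.

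**Figure D1:**
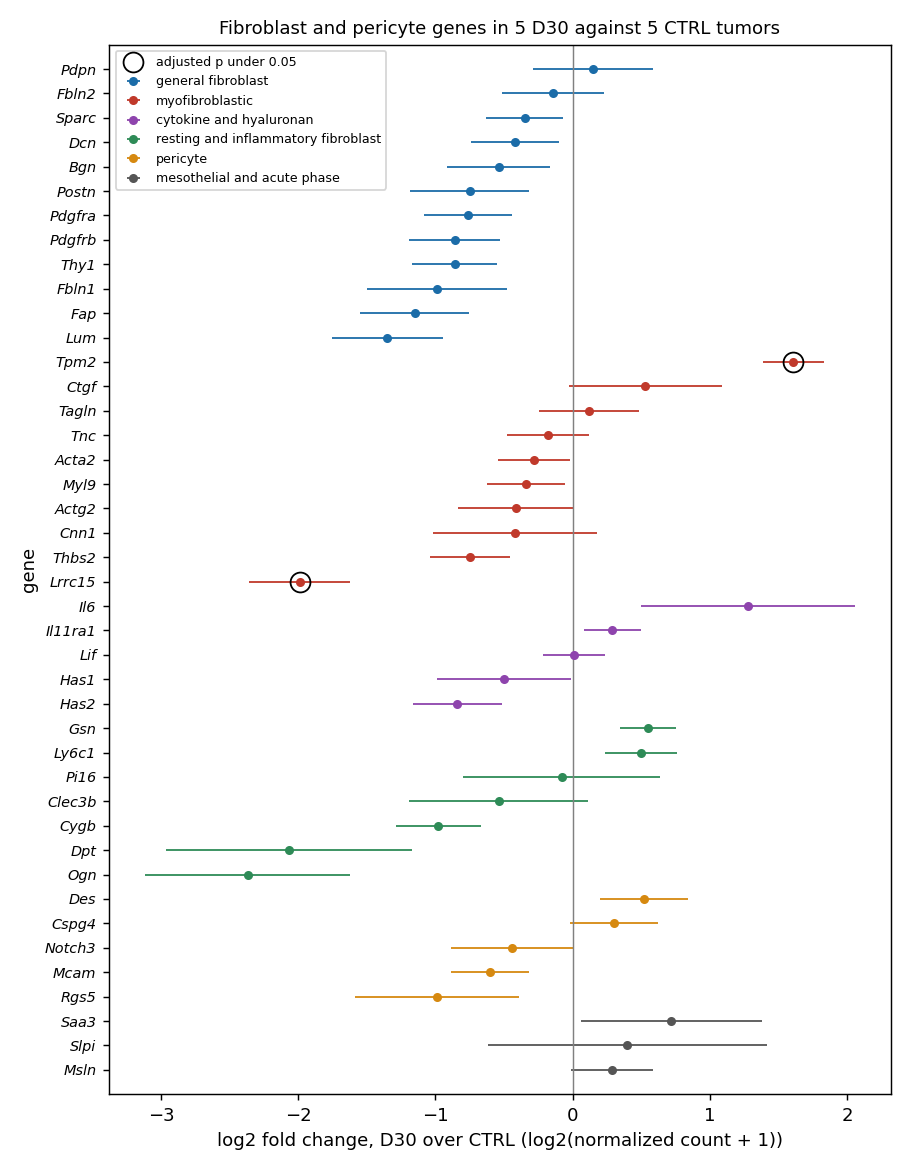
Log2 fold change of D30 over CTRL on log2(normalized count + 1) for each of the 42 genes, sorted within role; bars are the standard error of limma's fit over 5 and 5 tumors, and open circles mark an adjusted p under 0.05. Tpm2 at 1.61 and Lrrc15 at -1.99 carry circles, and 11 of the 12 general fibroblast genes lie left of 0.

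Tpm2 encodes beta-tropomyosin, an actin-binding protein of contractile filaments that is abundant in muscle and myofibroblasts and is also made by other cells. The gene (chr4:43514711-43523765, minus strand, GRCm38) had normalized counts of 2296, 1633, 2192, 1376 and 1794 in N1, N2, N4, N5 and N6. In T1, T2, T4, T5 and T7 they were 3864, 4848, 7609, 6521 and 5843. Every D30 tumor lay above every CTRL tumor. The mean was 5737 ± 1452 (SD, n = 5) in D30 against 1858 ± 384 (SD, n = 5) in CTRL, a log2 fold change of 1.61 (SE 0.220, adjusted p = 0.00261, limma with Benjamini-Hochberg adjustment). The exact permutation test gave p = 0.00794, the smallest that 5 tumors against 5 allow. Any gene without overlap gets this value, so it adds nothing to the lack of overlap. Without T4 and T5, without N1 and T4, and after GC correction the call held, as it did under all 23 alternatives.

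Lrrc15, a leucine-rich repeat membrane protein of myofibroblasts in the stroma of solid tumors, moved the other way. The gene (chr16:30269302-30283256, minus strand, GRCm38) had normalized counts of 1398, 964, 1045, 1111 and 564 in N1, N2, N4, N5 and N6. In T1, T2, T4, T5 and T7 they were 367, 111, 282, 438 and 172. The groups did not overlap, and the nearest tumors were N6 at 564 and T5 at 438. The mean fell from 1016 ± 301 (SD, n = 5) in CTRL to 274 ± 135 (SD, n = 5) in D30, a log2 fold change of -1.99 (SE 0.369, adjusted p = 0.0127, limma with Benjamini-Hochberg adjustment). The exact permutation test gave p = 0.00794, which again follows from the lack of overlap alone. This call also held under all 23 alternatives, with log2 fold changes from -2.34 to -1.71 and adjusted p values (limma, edgeR or DESeq2) up to 0.0419.

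The promoters of both genes are shown because these were the members called. RefSeq promoters (GRCm38.p6, from 250 bases before to 50 bases after the start site) were at hand for 30 of the 42 genes. The 250 bases before the start site of Lrrc15 span chr16:30283255-30283504 and those of Tpm2 span chr4:43523555-43523804, both read 5′ to 3′ on the minus strand. Capitals mark an AP-1 motif (TGACTCA on either strand) 53 to 47 bases before the Lrrc15 start site. Of the 30 promoters, those of Lrrc15, Il6 and Lif held this motif, beside 5.17% of all 27025 RefSeq promoters of the same length. The Tpm2 stretch is 69.6% G and C against 56.4% for Lrrc15, and the 300-base promoter of Tpm2 held neither this motif, a CArG box nor an NF-kB motif. In GENCODE the Tpm2 gene reaches chr4:43523765, so most of its stretch lies inside the gene as annotated there. Sequence upstream of that GENCODE start was largely not searched. Such matches describe letters and not binding.
Lrrc15: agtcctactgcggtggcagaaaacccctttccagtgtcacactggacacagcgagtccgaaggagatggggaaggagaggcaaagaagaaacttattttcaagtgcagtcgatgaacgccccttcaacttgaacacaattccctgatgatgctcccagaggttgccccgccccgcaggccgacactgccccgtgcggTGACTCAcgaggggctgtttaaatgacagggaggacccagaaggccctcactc
Tpm2: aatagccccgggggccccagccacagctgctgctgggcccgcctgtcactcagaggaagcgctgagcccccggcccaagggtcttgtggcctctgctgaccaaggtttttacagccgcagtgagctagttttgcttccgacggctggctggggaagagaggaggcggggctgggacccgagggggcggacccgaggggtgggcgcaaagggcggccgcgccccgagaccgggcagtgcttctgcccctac

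The other contractile genes did not move with Tpm2. Acta2, smooth muscle alpha-actin and the usual marker of myofibroblasts, had normalized counts of 3770, 3142, 2972, 2277 and 2486 in the CTRL columns and 2372, 1301, 3289, 3404 and 2207 in the D30 columns, in the order above. The groups overlapped widely, and the log2 fold change was -0.28 (SE 0.261, limma adjusted p = 0.636). Myl9, the regulatory light chain of smooth muscle myosin, averaged 569 ± 118 in CTRL against 470 ± 165 in D30 (SD, n = 5 each). Actg2, smooth muscle gamma-actin, averaged 366 ± 93.8 and 316 ± 178 (SD, n = 5 each). Cnn1, calponin of smooth muscle, ranged from 68.5 to 167 in CTRL and from 18.3 to 283 in D30, where T1 was highest and T2 lowest. Tagln was listed at 30.2 to 51.5 in CTRL and 30.9 to 79.8 in D30. It is uncertain, since 1241 of its 1988 exon bases overlap an opposite-strand gene, Gm48529, and whether reads were counted by strand is not stated.

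Among the myofibroblastic genes with a promoter, Myl9 held a CArG box, the motif bound by serum response factor at contractile genes, beside 1.57% of all promoters. It is shown for that motif. The stretch is the plus strand of chr2:156775214-156775463 (GRCm38.p6), and the capitals mark the box 161 to 152 bases before the start site.
Myl9: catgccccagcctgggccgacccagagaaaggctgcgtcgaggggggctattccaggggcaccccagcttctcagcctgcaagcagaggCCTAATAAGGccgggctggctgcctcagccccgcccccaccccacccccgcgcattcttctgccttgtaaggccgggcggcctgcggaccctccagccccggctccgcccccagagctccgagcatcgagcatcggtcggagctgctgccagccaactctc

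Secreted matrix members of the myofibroblastic role did not pass the test. Thbs2, thrombospondin 2, averaged 3327 ± 632 in CTRL against 2113 ± 937 in D30 (SD, n = 5 each), a log2 fold change of -0.75. Tnc, tenascin C, had -0.18, from 3216 to 6329 in CTRL and from 2418 to 7046 in D30. Ctgf, a matricellular protein induced by TGF-beta and by mechanical strain, had 2891 to 4514 in CTRL and 2112 to 3312 in T1, T2 and T7. In T4 it reached 9681 and in T5 26177, so that the group's SD of 10198 exceeded its mean of 8777. The 2 tumors with the high Ctgf values were among those that stood apart.

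**Figure D2:**
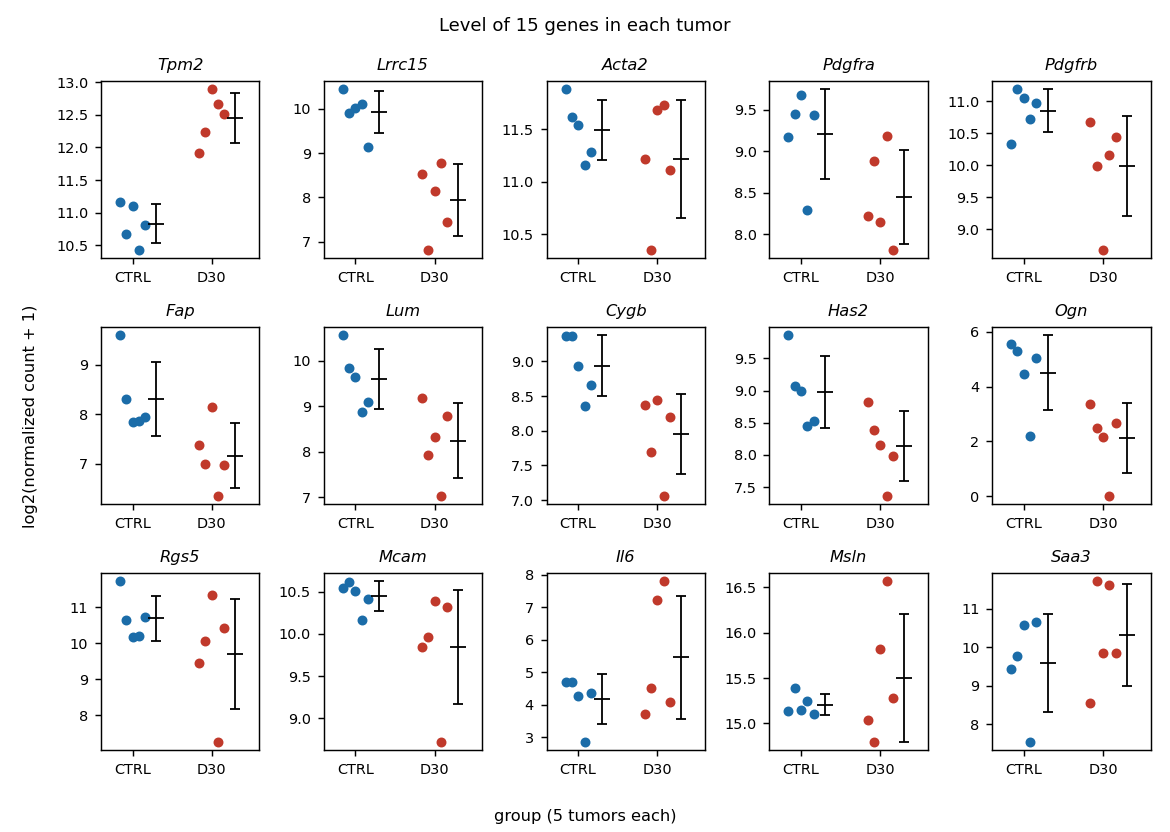
Level of 15 genes on log2(normalized count + 1) in each tumor; each dot is 1 tumor (blue, CTRL; red, D30), and the bar beside the dots is the mean and SD of 5 tumors. Each panel has its own axis. The groups are apart for Tpm2 and Lrrc15 and overlap in the other 13 panels.

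Because a whole tumor varies in its stroma content, the called genes were also set against other genes of the same tumor, as ratios of normalized counts that were chosen after the values were seen and not tested. Lrrc15 to Acta2 lay between 0.227 and 0.488 in CTRL and between 0.0777 and 0.155 in D30. Lrrc15 to Postn was 0.21 to 0.408 in CTRL and 0.0732 to 0.153 in D30. In both cases the groups did not overlap, so Lrrc15 was lower also per Acta2 and per Postn. These 2 genes had log2 fold changes of -0.28 and -0.75, nearer 0 than that of Lrrc15. The part of stroma content in the Lrrc15 values was not tested. Lrrc15 to Pdgfrb did overlap, with 0.282 to 1.09 in CTRL and 0.109 to 0.691 in D30, where T4, whose Pdgfrb was lowest, had the highest D30 ratio.

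Tpm2 to Tpm1, another tropomyosin gene, was 0.142 to 0.198 in CTRL and 0.449 to 0.662 in D30. Tpm1 itself had a log2 fold change of -0.02 (limma adjusted p = 0.971) and Tpm4 had -0.12 (limma adjusted p = 0.895). Tpm2 to Acta2 was 0.52 to 0.737 in CTRL and 1.63 to 3.73 in D30. The summed level of 9 markers of the tumor epithelium was 209957 to 335644 in CTRL against 341453 to 476102 in D30. Most of this sum was Krt8, Krt18 and Krt19. The mean deviation of the 9 markers, each weighted equally, overlapped at -0.71 to 0.37 in CTRL and -0.53 to 0.43 in D30 (log2). Of these 9 markers, 7 had a log2 fold change above 0. Against these, the adhesion gene Epcam was at 15.9 to 191 in CTRL and 0 to 62.5 in D30 (log2 fold change -3.17, limma adjusted p = 0.099). Cldn7 was the single epithelial marker called, at 6.2 to 45.2 in CTRL and 0 to 4.58 in D30 (log2 fold change -2.59). Its limma adjusted p lay just under the threshold (0.05 when rounded), and each D30 tumor had 0 to 4 reads. Krt18 had a log2 fold change of 0.90 (limma adjusted p = 0.0715) and Krt7 had 1.04 (limma adjusted p = 0.073). Tpm2 to Krt18 was 0.0291 to 0.0375 in CTRL and 0.0444 to 0.0623 in D30, without overlap, whereas Tpm2 to Krt7 overlapped at 0.0793 to 0.105 against 0.092 to 0.199. Tpm2 to Krt8 overlapped as well, at 0.0177 to 0.038 against 0.0244 to 0.0956. The part of epithelial cells in the Tpm2 values was not tested. Of the 8 skeletal muscle markers, 6 were tested and 5 of them had a log2 fold change above 0 (median 0.62), with none called by limma and 2 higher at an unadjusted p under 0.05. Their summed level was 1055 to 1501 in CTRL against 1083 to 2161 in D30, most of it Tnni2 (944 to 2053 over all tumors). Mylpf, a myosin light chain of fast muscle, was at 32.8 to 56.8 in CTRL and 68.7 to 96 in D30, without overlap (log2 fold change 0.80, limma adjusted p = 0.18). Acta1, skeletal muscle actin, had a log2 fold change of 1.42 (limma adjusted p = 0.192), Ckm was at 8.23 or less in all 10 tumors, and Mb was at 0 in 8. The part of muscle RNA in the Tpm2 values was not tested either.

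**Figure D3:**
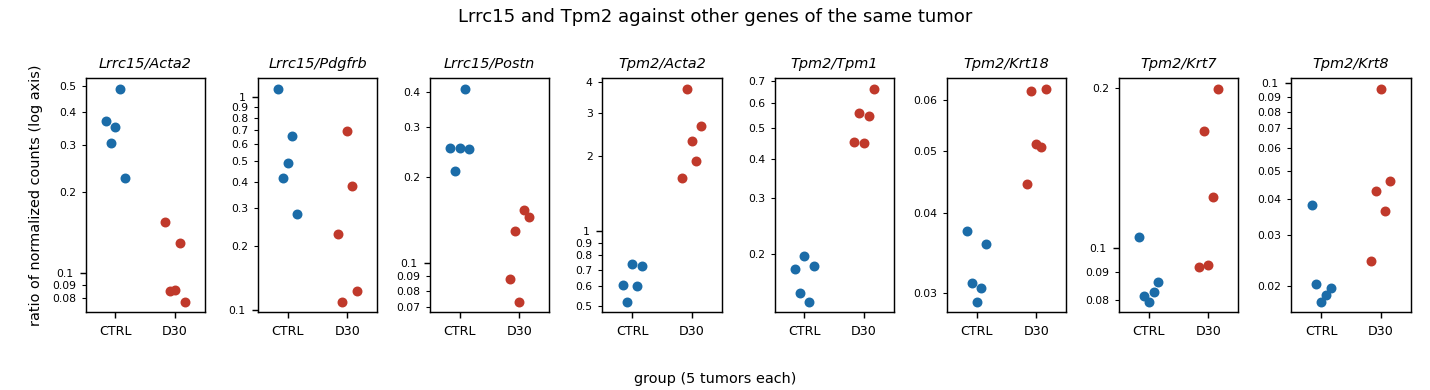
Ratios of the normalized counts of Lrrc15 or Tpm2 to those of another gene in the same tumor, on log axes that differ between panels; each dot is 1 tumor (blue, CTRL; red, D30). Lrrc15/Acta2, Lrrc15/Postn, Tpm2/Acta2, Tpm2/Tpm1 and Tpm2/Krt18 separate the groups, and Lrrc15/Pdgfrb, Tpm2/Krt7 and Tpm2/Krt8 do not.

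Among receptors of the general fibroblast role, Pdgfra, the PDGF receptor of most fibroblasts, had normalized counts of 578, 702, 820, 313 and 694 in CTRL and 297, 472, 282, 582 and 223 in D30. N5 lay with the lower D30 tumors, and T5 with the CTRL tumors. Its log2 fold change was -0.76 (SE 0.321, limma adjusted p = 0.244). Pdgfrb, the receptor shared by fibroblasts and pericytes, had 1288, 2328, 2127, 1689 and 1997 in CTRL and 1626, 1017, 408, 1144 and 1390 in D30. N1 lay among the D30 tumors, and the other 4 CTRL tumors lay above all D30 tumors. Its log2 fold change was -0.86 (SE 0.330, limma adjusted p = 0.196), and without N1 and T4, the pair with the GC difference, it was called (limma adjusted p = 0.0416), as were 6.49% of all tested genes.

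Fap, fibroblast activation protein, a surface protease of activated fibroblasts, had 772, 315, 228, 231 and 245 in CTRL and 165, 126, 281, 80.1 and 125 in D30. T4 was the only D30 tumor within the CTRL range, and N1 was the highest of all 10 tumors. The log2 fold change of -1.15 (SE 0.398) was not called with all tumors (limma adjusted p = 0.157) but was called without T4 (limma adjusted p = 0.0367), where calls over all tested genes rose from 2.76% to 6.43%. Pdpn, the membrane glycoprotein podoplanin, was the single general fibroblast gene above 0 (log2 fold change 0.15, and -0.07 when scaled to library size), with T4 highest at 1172. Thy1, a surface glycoprotein of fibroblasts, averaged 2068 ± 754 in CTRL against 1125 ± 378 in D30 (SD, n = 5 each).

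Lum, the small proteoglycan lumican, had the smallest p of the general fibroblast genes. It had 1504, 917, 794, 467 and 547 in CTRL and 576, 242, 320, 129 and 439 in D30. T1 lay above N5 and N6, and the other 4 D30 tumors lay below all CTRL tumors. This gave a log2 fold change of -1.35 (SE 0.406, limma adjusted p = 0.102). The related proteoglycans Dcn and Bgn had log2 fold changes of -0.42 and -0.54, with ranges of 897 to 2729 against 1000 to 2208 for Dcn and 9380 to 16005 against 2966 to 16620 for Bgn.

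The remaining matrix genes of this role overlapped between groups. Postn, periostin, averaged 3841 ± 1349 in CTRL against 2589 ± 1517 in D30 (SD, n = 5 each). Fbln1, fibulin 1, averaged 1096 ± 220 and 728 ± 519 (SD, n = 5 each), and T4 and T5 were at 155 and 270. Fbln2 went the other way in T5, at 79288 beside 18503 to 41043 in the other 9 tumors. Sparc, a calcium-binding matricellular protein, had a log2 fold change of -0.35. Per kb of exon over all 10 tumors, Sparc (median 6371 normalized counts per kb) and Fbln2 (4654) stood highest in this role, and Fap (40.6) lowest.

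**Figure D4:**
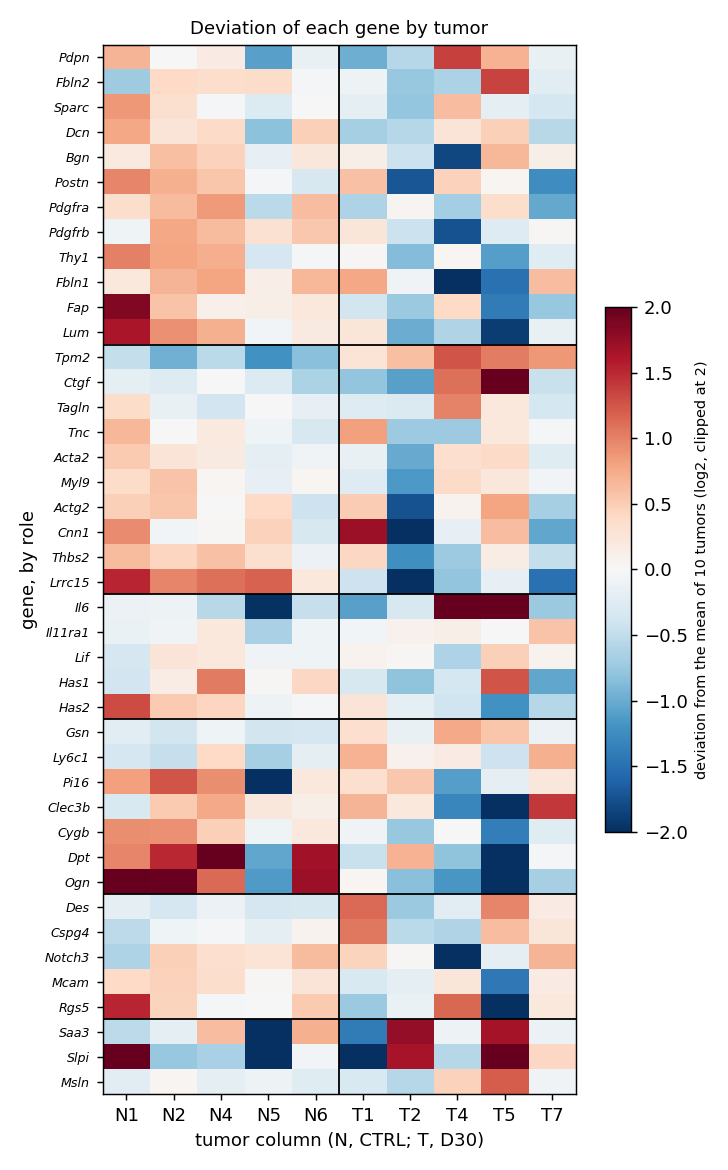
Deviation of each of the 42 genes (rows, grouped by role and separated by lines) from its mean over the 10 tumors (columns), on log2(normalized count + 1), with colors clipped at 2. N1 is the highest tumor for 14 genes and T2 the lowest for 13, and T5 is the highest for 8 and the lowest for 10.

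The D30 tumors differed more among themselves than the CTRL tumors did, for these genes as for the table as a whole. The SD on the log2 scale was larger in D30 than in CTRL for 34 of the 42 genes (81%, beside 84.4% of all tested genes). Its median over the 42 genes was 0.75 in D30 and 0.44 in CTRL, beside 0.78 and 0.42 over all tested genes. T5 was lowest for 10 genes and highest for 8, T2 was lowest for 13, and N1 was highest for 14. N5 was the CTRL tumor most often lowest, for 9 genes. The mean deviation of the 12 general fibroblast genes was -0.20 to 0.65 in CTRL and -0.66 to -0.07 in D30 (log2), with N5 in the D30 range.

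Of the cytokine genes of fibroblasts, Il6 was split by tumor. Il6, the cytokine that names inflammatory fibroblasts, had 25.2, 25.3, 18.3, 6.2 and 19.7 in CTRL and 12.3, 21.8, 147, 221 and 16 in D30. T4 and T5 stood above the rest, and T1, T2 and T7 were within the CTRL range. The log2 fold change of 1.28 (SE 0.779) did not pass the test (limma adjusted p = 0.429). Without T4 and T5 it was -0.07 (limma adjusted p = 0.951). Neutrophil markers were also highest in T5. S100a9, an abundant neutrophil protein, reached 5780 in T5, against 197 to 1228 in CTRL. It was at 2641 in T2, where Il6 was within the CTRL range, and at 1174 in T4, where Il6 was high. All 6 neutrophil markers had a log2 fold change above 0. Their summed level was 635 to 3129 in CTRL against 749 to 15446 in D30, and Ly6g was at 0 in N6. Their part in the Il6 values was not tested.

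The Il6 promoter is shown for its NF-kB motif, in capitals, 44 to 35 bases before the start site. Of the 30 promoters, 7 held such a motif (Cspg4, Des, Fbln1, Il6, Lif, Myl9 and Thbs2), which is 23.3% beside 8.18% of all promoters of that length. Their genes did not share a direction. The stretch is the plus strand of chr5:30012864-30013113 (GRCm38.p6).
Il6: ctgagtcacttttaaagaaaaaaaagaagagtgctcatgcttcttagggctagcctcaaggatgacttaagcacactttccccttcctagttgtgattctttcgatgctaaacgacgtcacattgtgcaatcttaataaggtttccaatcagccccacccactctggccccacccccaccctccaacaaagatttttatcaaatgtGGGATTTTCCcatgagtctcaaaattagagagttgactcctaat

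Lif, a cytokine of the IL-6 family, had a log2 fold change of 0.01, with 494 to 753 in CTRL and 407 to 869 in D30. Il11ra1, a receptor of IL-11, had 558 to 1010 in CTRL and 842 to 1296 in D30. It is uncertain, because 42.7% of the 100-base windows of its longest transcript also lie in Il11ra2 or Gm13305. Hyaluronan, the large sugar polymer of the pancreatic stroma, is made by Has1, Has2 and Has3. Has2 had 928, 539, 508, 350 and 368 in CTRL and 451, 332, 285, 163 and 252.5 in D30. T1 alone lay within the CTRL range. Its log2 fold change was -0.84 (SE 0.323, limma adjusted p = 0.198), and Has1, at 9.59 to 51.5 in all tumors, had -0.50.

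The resting fibroblast genes were mostly low in these tumors. Cygb, cytoglobin, a marker of stellate cells, had 660, 658, 486, 328 and 402 in CTRL and 331, 205, 347, 132 and 294 in D30. N5 lay just below T1 and T4, and the other CTRL tumors lay above all D30 tumors. Cygb had a log2 fold change of -0.98 (SE 0.310, limma adjusted p = 0.119), and without T4 it was called together with Fap (limma adjusted p = 0.0441). Ogn, osteoglycin, had 46.3, 38.3, 21, 3.54 and 31.7 in CTRL and 9.25, 4.58, 3.47, 0 and 5.33 in D30. N5 lay with the D30 tumors, and these were 0 to 9 reads. Ogn had a log2 fold change of -2.37 (SE 0.75, limma adjusted p = 0.119).

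Dpt, dermatopontin, had 10.6 to 97.8 in CTRL and 0 to 37.8 in D30, with no read in T5, which allows up to 3 reads. Pi16 and Clec3b, markers of resting fibroblasts, had log2 fold changes of -0.08 and -0.54. Gsn, the actin-severing protein gelsolin, was higher at an unadjusted p under 0.05, with 9931 ± 896 in CTRL against 14955 ± 4116 in D30 (SD, n = 5 each) (log2 fold change 0.55, limma adjusted p = 0.191). Ly6c1, a surface protein of inflammatory fibroblasts and of endothelium, had 780 to 1623 in CTRL and 927 to 2020 in D30. It shares 15.3% of its 100-base windows with Ly6c2, so reads may be split between them. Acinar genes, which mark normal pancreas in the sample, had summed levels over 8 genes of 274 to 65028 in CTRL against 144 to 6042 in D30. One of them, Cpa1, was at 1942, 200, 5202 and 359 in N2, N4, N6 and T4 and at 7.97 or less in the other 6 tumors. The part of normal pancreas in the fibroblast values was not tested.

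No pericyte gene passed the test. Rgs5, a regulator of G-protein signalling used as a pericyte marker, had 3378, 1601, 1158, 1169 and 1691 in CTRL and 698, 1072, 2598, 150 and 1365 in D30. The groups overlapped, and T5 stood lowest. The log2 fold change was -0.99 (SE 0.600, limma adjusted p = 0.429). Mcam, a surface adhesion protein of pericytes and endothelium, had 1492, 1567, 1449, 1149 and 1359 in CTRL and 915, 1000, 1342, 419 and 1273 in D30. N5 alone lay within the D30 range, and the log2 fold change was -0.60 (SE 0.284, limma adjusted p = 0.296).

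The other pericyte genes pointed both ways. Des, the intermediate filament protein desmin, was narrow in CTRL (522 to 606) and wide in D30 (394 to 1446), with T1 and T5 at 1446 and 1292. Cspg4, the NG2 proteoglycan, had 208 to 315 in CTRL and 197 to 625 in D30. Notch3, a receptor of mural cells, had a log2 fold change of -0.44, with 82.1 in T4. Markers of endothelium, the cells that pericytes wrap, were below 0 for 7 of 9 genes (median log2 fold change -0.64), and 1, Cdh5, fell (log2 fold change -1.45, limma adjusted p = 0.0117). The summed endothelial level was 13207 to 20734 in CTRL and 7585 to 11659 in D30, and no marker was at 0 in any tumor. Cdh5 was the largest part of this sum, at 7205 to 14529 in CTRL and 2480 to 6142 in D30. The mean deviation of the 9 markers, which weights them equally, overlapped at 0.20 to 0.40 in CTRL and -1.21 to 0.39 in D30 (log2). Of the 8 macrophage markers 7 were below 0, with a median of -0.76, summed levels of 24704 to 37442 in CTRL against 15204 to 33575 in D30, and 1 gene that fell, Csf1r (log2 fold change -1.06, limma adjusted p = 0.0449). Whether cell makeup differed was not measured, and its part in the fibroblast values was not tested.

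Msln, mesothelin, a surface protein of mesothelium that pancreatic tumor cells also carry, had the highest level per kb of exon of the 42 genes (median 12307 normalized counts per kb over 10 tumors). Its normalized counts were 36060, 42928, 36395, 39024 and 35261 in CTRL and 33728, 28329, 57743, 97050 and 39836 in D30. T4 and T5 lay above all CTRL tumors and T1 and T2 below them, and the log2 fold change was 0.29 (SE 0.299, limma adjusted p = 0.668). Other mesothelial markers were far lower, their sum lying between 382 and 552 in CTRL and between 417 and 1676 in D30 over 8 genes. Of these 8 markers 4 had a log2 fold change above 0 and 4 below (median 0.40). Muc16 fell (log2 fold change -4.22, limma adjusted p = 0.00519). Upk3b was at 27.5 to 46.6 in CTRL and 57.8 to 569 in D30, without overlap, and was not called (log2 fold change 2.07, limma adjusted p = 0.0519). The part of mesothelium in the Msln values was not tested. Saa3, an acute phase protein, had 693, 873, 1531, 183 and 1618 in CTRL and 376, 3357, 926, 3134 and 920 in D30. T2 and T5 stood highest, and the log2 fold change was 0.72 (SE 0.662, limma adjusted p = 0.626). Slpi, a secreted protease inhibitor, spread from 29.2 to 2014 within CTRL alone.

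The signals that act on these cells were read from 7 lists of 92 genes, none of them members. In all, 1 of the 92 rose and 4 fell (5.43%, beside 2.76% of all tested genes called in either direction). The groups did not overlap for 8 of the 92 (8.7%, beside 6.19%). At an unadjusted p under 0.05, 19 were lower (20.7%, beside 9.54% of all tested genes) and 3 were higher (3.26%, beside 7.79%). The median log2 fold change was -0.29, beside -0.06 over all tested genes. Of the 11 PDGF and FGF genes, 1 fell. This was Fgf7, a growth factor that mesenchymal cells secrete for epithelium, with 135, 137, 61.2, 77 and 77.9 in CTRL and 18.5, 28.6, 25.4, 36.6 and 26.6 in D30. The groups did not overlap, and the log2 fold change was -1.76 (SE 0.349, limma adjusted p = 0.0173). Of the PDGF ligands, Pdgfa and Pdgfb had log2 fold changes of -0.71 and -0.19 that did not pass.

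Of the 11 TGF-beta genes, 1 fell. Tgfb3, a TGF-beta ligand, had 1058, 1146, 822, 991 and 1008 in CTRL and 563, 425, 280, 532 and 669 in D30, again without overlap. Its log2 fold change was -1.07 (SE 0.238, limma adjusted p = 0.0298), while Tgfb1 and Tgfb2 had 0.26 and -0.54 and did not pass. Of the 12 IL-1 and IL-6 family genes, 1 rose. Il1a, the cytokine that drives the inflammatory state of fibroblasts, had 57.9, 51.3, 111, 83.2 and 47.9 in CTRL and 153, 149, 324, 212 and 140 in D30. Every D30 tumor lay above every CTRL tumor, with a log2 fold change of 1.46 (SE 0.337, limma adjusted p = 0.0352). Il1b did not pass (log2 fold change 0.68), nor did Il6st (-0.39), the shared receptor of the IL-6 family.

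Of the 21 other fibroblast matrix and surface genes, 1 fell. Islr, a secreted protein of mesenchymal cells, had 959, 764, 531, 451 and 525 in CTRL and 223, 249, 186, 90.4 and 358 in D30, without overlap (log2 fold change -1.62, SE 0.347, limma adjusted p = 0.0253). Of these 21 genes, 7 were lower at an unadjusted p under 0.05 (33.3%, beside 9.54% of all tested genes) and 1 was higher (4.76%, beside 7.79%). Of the 11 genes of hyaluronan turnover and binding, 1 fell. Cd44, the hyaluronan receptor of tumor, immune and stromal cells, had 21328, 23671, 15071, 28269 and 18923 in CTRL and 9808, 8530, 11861, 12224 and 7942 in D30, and the groups did not overlap (log2 fold change -1.08, SE 0.212, limma adjusted p = 0.0166). None of the 16 genes of the actin and serum response factor programme was called by limma, nor any of the 10 other pericyte genes. At an unadjusted p under 0.05, 1 of the 16 (6.25%) and 4 of the 10 (40%) were lower, beside 9.54% of all tested genes. The smallest p values there were those of Cald1, caldesmon (log2 fold change -0.96, limma adjusted p = 0.112), and Foxs1 (-0.90, limma adjusted p = 0.153).

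These calls were less firm than those of Tpm2 and Lrrc15 when single tumors were left out. Without 1 tumor at a time, limma's adjusted p ranged up to 0.0745 for Fgf7 (not called without N1 or N2), 0.105 for Tgfb3 (without N1, N2, N5, N6 or T2), 0.116 for Il1a (without N1, N2, N5, N6, T1, T2 or T7), 0.0887 for Islr (without N1, N2, N4 or N6) and 0.0644 for Cd44 (without N2 or N5). The direction was the same each time.

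**Figure D5:**
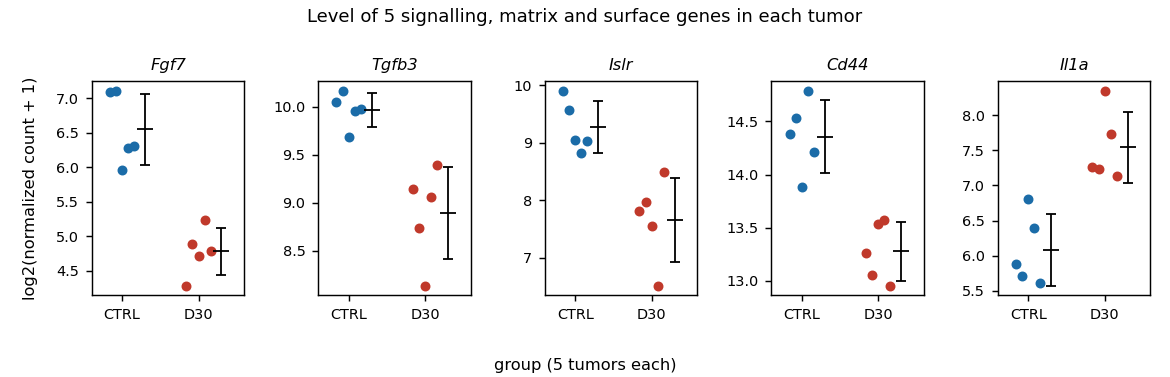
Level of the 5 called genes of the signalling, matrix and surface lists on log2(normalized count + 1) in each tumor; each dot is 1 tumor (blue, CTRL; red, D30), and the bar is the mean and SD of 5 tumors. Fgf7, Tgfb3, Islr and Cd44 are lower and Il1a is higher in every D30 tumor.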

How the data were processed

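RNA of 10 orthotopic tumors was sequenced from strand-specific libraries read in pairs. Per the labels and the methods, the authors trimmed adapters with Trim Galore, aligned the reads with STAR (2.7.0e) and used DESeq2. The processing notes name GRCm39 and the methods name hg38, whereas the identifiers deposited are mouse Ensembl genes. The counting settings are not given in the sources used here. The authors deposited 1 normalized count per gene and tumor (a signal, reads over 1 size factor per tumor). Of these values, 100.0% gave whole reads within a tolerance of 0.01 once that factor was undone. Columns with the letter N were taken as CTRL and those with T, the only other group, as D30. No column was tied to a single animal. Positions and names came from GENCODE M21 (GRCm38), to which 94.1% of the identifiers were matched.

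limma (3.58.1, R 4.3.3) with a mean-variance trend was fitted to log2(normalized count + 1) of the 24560 genes with a mean of at least 1. Benjamini-Hochberg adjustment ran over all of them, and an adjusted p under 0.05 was a call. Each member was also put to a two-sided exact permutation test, which with 5 tumors per group cannot give a p below 0.00794. Apart from Tpm2 and Lrrc15, its smallest p was 0.0238 (Lum, Gsn and Cygb), not adjusted for the number of genes. edgeR (4.0.16) and DESeq2 (1.42.0) on the recovered reads were alternatives, and edgeR called 707 genes. The other alternatives were pseudocounts, filters, scalings, leaving out each column, leaving out the columns that stood apart and a correction for GC content. The fit was also run on simulated counts with the same spread in both groups and no GC difference, unlike these tumors. That run therefore gives no error rate for the calls made here. The members and lists were chosen with earlier results of these data known, and the AP-1 motif was added after the sequences were seen.

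Values of every tumor are given for members that were called, for members whose groups did not overlap, for the 2 members of lowest p within each of 6 roles, and for Pdgfra, Pdgfrb, Fap, Acta2, Rgs5 and Il6. Partner genes named are those called and the 1 with the smallest p in each list. Any other gene singled out was chosen after its values were seen. The labels number the samples of a group without saying that each came from its own animal, so p values measure the spread between these samples.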

Additional observations from a re-analysis of the deposited data

Results flagged for a closer look

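Within each group of 5 tumors, each of the 42 genes was checked for a single tumor far from the others (Dixon's criterion on the log2 scale). Of the 84 groups, 6 held such a tumor (7.14%), and chance alone flags about 1 in 20 groups. Fap stood at 772 in N1, against 228 to 315 in the other CTRL tumors. Notch3 was at 223 in N1, against 416 to 533. Il6 was at 6.2 in N5, against 18.3 to 25.3, and Pi16 was at 4.43 in N5, against 50.5 to 106. Among D30 tumors, Il11ra1 was at 1296 in T7, against 842 to 946, and Dpt was at 0 in T5, against 12.7 to 37.8.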

How the results depend on the processing

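Tpm2 and Lrrc15 kept their calls under all 23 alternatives. DESeq2 on the recovered reads called 2 of the 42 genes higher (adding Il6) and 4 lower (adding Cygb, Lum and Ogn). It called 1867 genes in all, against 678 by limma. The DESeq2 adjusted p was 0.0389 for Il6, 0.039 for Cygb, 0.0256 for Lum and 0.00685 for Ogn. The share of all genes called by DESeq2 is not given here, so these counts are not read against the table as a whole. Leaving out 1 column at a time left 1 gene called higher each time and 1 to 3 lower (3 without T4, which added Cygb and Fap while calls over all tested genes rose from 678 to 1573), with 2 to 6 genes whose groups did not overlap (4 without N4, 6 without N5 and 4 without T1, beside 8.62%, 7.42% and 8.88% of all tested genes) and a median log2 fold change of -0.45 to -0.21. The edgeR filter kept 41 of the 42 genes and left out Ogn. Without T4 and T5, 2 genes were called lower (adding Fap), beside 9.97% of all tested genes called. Without N1 and T4, 3 were called lower (adding Fap and Pdgfrb) and 4 did not overlap, beside 6.49% and 16.1% of all tested genes. Those last 2 alternatives, and the GC correction, were chosen after seeing the data. The causes were not tested. Scaling to library size moved the median of all tested genes from -0.06 to -0.27 and that of the 42 genes to -0.64, and the signs of Pdpn, Tagln and Lif, all uncalled, turned. No paired analysis was possible because the column numbers are not the replicate numbers of the labels, and the planned fit with a replicate block was not run. Genes under about 3 reads in a tumor, such as Ogn and Dpt in T5, carry mostly counting error, and intervals and floors cover that error only.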
